A study of Mus musculus with 26 samples.

Results

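Microglia are the resident macrophages of the brain. They enter it early in gestation, divide there while the cortex forms its neurons, and gradually take on a set of surface receptors and enzymes that marks the adult, surveying state. The cells described here are microglia of the prospective somatosensory cortex of wild-type C57Bl/6N mice, taken at E13.5 or E15.5 (embryonic days of age) from dams that had been injected with saline at E12.5. Each stage had 3 libraries from pooled embryos of both sexes, so the stages are also 1 and 3 days after the injection, and age and time since injection cannot be told apart. Live Cd11b+, Cx3cr1+, Cd45low cells were sorted after the meninges had been removed, and were profiled by droplet single-cell RNA sequencing, in which each captured molecule is counted by a unique molecular identifier (UMI). These 6 libraries are 6 of 26 in the series. The others are sorted microglia after maternal immune activation (MIA) with Poly(I:C), sorted microglia of postnatal day (P) 14, and cortical nuclei.

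Barcodes with at least 500 genes, at most 20% mitochondrial UMIs and at least 3 UMIs over the microglial genes Csf1r, C1qa, C1qb and Cx3cr1 were kept. These were 19111 barcodes, namely 1150, 1779 and 3211 in E13.5 replicates 1 to 3 and 5559, 2935 and 4477 in E15.5 replicates 1 to 3. The gate on microglial genes kept between 93.4% and 96.9% of the barcodes that passed the other filters. The summed UMIs per library ranged from 21100428 to 77035470. The median cell held 16320.5, 14079 and 8941 UMIs in E13.5 replicates 1 to 3 and 12161, 10774 and 8728 in E15.5 replicates 1 to 3. UMIs were summed per library, genes were compared between 3 and 3 libraries with edgeR, and levels are given as CPM, the UMIs of a gene per 1000000 UMIs of the library. The libraries come from separate samples by their labels, while litter and sequencing batch are not given there, so the p-values measure the spread between these samples. In such sums, fewer cells of a kind and less RNA per cell cannot be told apart. CPM is a share of the UMIs of a library, so a change in CPM does not show a change in transcripts per cell.

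The label of the cells held against genes that the gate did not use. P2ry12, Fcrls, Tmem119, Sall1 and Trem2 were present in each of the 6 libraries. Marker genes of neurons summed to 79.6, 83.6 and 67.6 CPM in the E13.5 libraries and to 411, 313 and 134 CPM in the E15.5 libraries, and 9 of 14 tested neuronal markers were called higher at E15.5. Hemoglobin and other erythroid genes summed to 241, 1123 and 52.3 CPM at E13.5 and to 794, 4371 and 840.0 CPM at E15.5, and none of 8 tested was called, or 1 higher and 1 lower without E15.5 replicate 1. Fibroblast and pericyte genes stayed at or below 5.41 CPM in sum, Ighm supplied nearly all of the lymphocyte sum, and Cd3e had no UMI at either stage. Xist, which is expressed from the inactive X chromosome of females, stood at 617, 392 and 103 CPM in the E13.5 libraries and at 372, 741 and 509 CPM in the E15.5 libraries, and Ddx3y, a gene of the Y chromosome, at 21.8, 26.2 and 30.3 CPM and at 14.9, 21.9 and 41.8 CPM. They did not run opposite to each other among the E15.5 libraries, and none of 6 sex-linked genes was called.

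E15.5 replicate 1 stood apart from the other E15.5 libraries. On the first principal component of the 6 libraries, which held 52.8% of the variance, it lay at 20.1, against 49.1 and 44.4 for replicates 2 and 3 and between -37.3 and -38.7 for the E13.5 libraries. It also held more dividing cells and 1300 gated barcodes with at least 3 UMIs of neuronal genes, against 179 and 107 in replicates 2 and 3. Values without it are therefore given beside a gene where they change its call and beside a list where they move a count of calls by over 1.5 times. This library was singled out from these same data. Leaving it out widens the gap between the stages on that component, so calls gained that way are not separate evidence of a stage change. Over all genes 5287 were then called, against 2227 with 6 libraries. Between 117 and 238 were called without any 1 of the E13.5 libraries or E15.5 replicate 2, and 1568 without E15.5 replicate 3. Of the 19111 gated barcodes few were shared between the 6 saline libraries, at most 33 in a pair. Counting all 16 sorted libraries read, the shared barcodes came to between 1.35% and 6.96% of a saline library.

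Between E13.5 and E15.5, transcripts of DNA replication, mitosis, nucleotide synthesis and ribosome building fell as a share of the UMIs of cortical microglia. Transcripts of genes that mark homeostatic microglia, of lysosomal proteins and of complement C1q rose as a share. Whether their number per cell rose was not tested. Of the C1q genes, C1qa and C1qb were also used by the gate, and C1qc was not. Of 13384 genes tested, 1096 (8.19%) were higher and 1131 (8.45%) were lower at E15.5 at an adjusted p below 0.05 (edgeR quasi-likelihood test, Benjamini-Hochberg). Among these 2227 genes, 621 rose and 339 fell more than 2-fold, and in 2218 the 3 libraries of one stage lay wholly above the 3 of the other, which was so for 38.8% of all genes tested. The median change over all genes tested was -0.01 on the log2 scale. Without E15.5 replicate 1 the counts were 2552 higher (18.9%) and 2735 lower (20.2%), and 2195 of the 2227 genes were still called. Without any 1 of the E13.5 libraries or without E15.5 replicate 2 they fell to between 71 and 134 higher and between 46 and 113 lower, and between 63 and 72 of the 90 called genes among the 122 named by rule lost their call, each with its direction kept. DESeq2 also called 2213 of the 2227 genes.

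**Figure D1:**
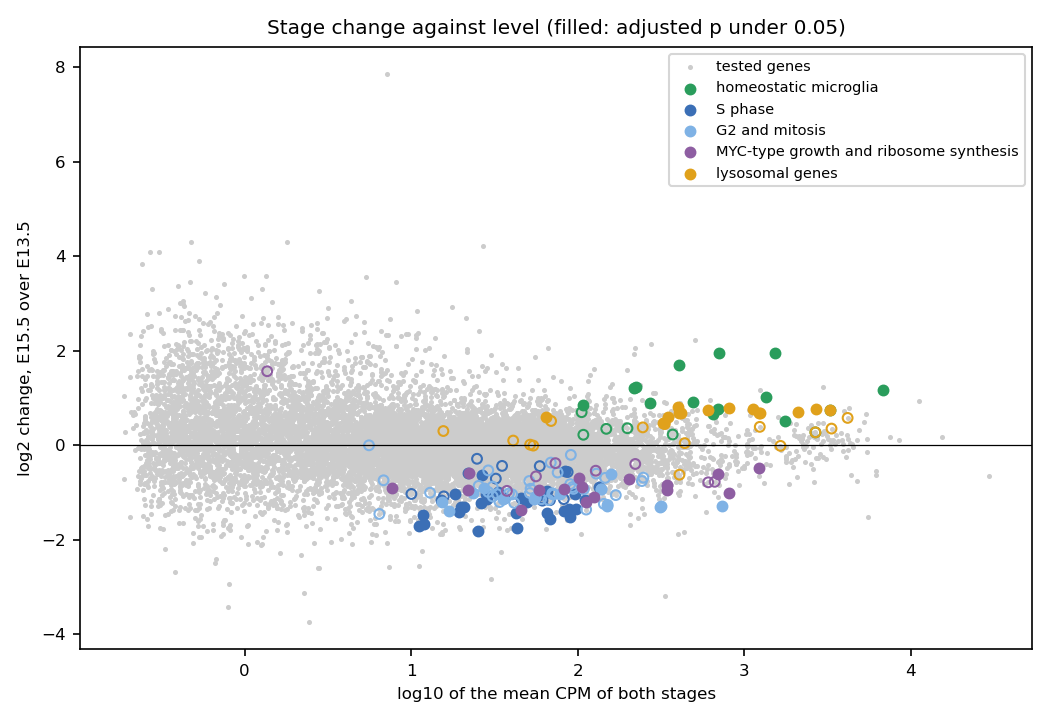
Log2 change from E13.5 to E15.5 of each tested gene against the log10 of its mean CPM over both stages, with members of 5 gene lists in colour, filled where the adjusted p was below 0.05. Homeostatic genes (green) and lysosomal genes (orange) lie mostly above 0, and the S phase, mitosis and growth genes (blue and purple) lie below it, apart from Mycn at 1.57 and Psrc1 at 0.0036, neither of which was called.

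The genes that mark the homeostatic state of microglia were called in a single direction. All 20 tested genes of the list had a positive change and 14 were called higher, with a median of 0.81 on the log2 scale, or 0.99 without E15.5 replicate 1. Their summed level was 14339.9, 15187 and 15363 CPM in the E13.5 libraries and 24637, 30965 and 31723 CPM in the E15.5 libraries. Every E15.5 library lay above every E13.5 library in this sum, and replicate 1 was the lowest of the E15.5 libraries.

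P2ry12 encodes the purinergic receptor by which microglia steer their processes towards released nucleotides (chr3:59216272-59262871 in GRCm38). It stood at 909.7, 891 and 839.8 CPM at E13.5 and at 1470.4, 1853 and 2153 CPM at E15.5. The stages did not overlap, and the mean level doubled (log2 change 1.03 ± 0.16 SE, adjusted p = 0.0106). Tmem119, a membrane protein used to tell microglia from other macrophages, went from 159, 182 and 216 CPM to 304, 333 and 427 CPM (log2 change 0.90 ± 0.19 SE, adjusted p = 0.0201). Siglech, a sialic acid-binding lectin, was nearly level among the E13.5 libraries at 329.6, 338 and 341 CPM and spread widely at E15.5, at 416, 710.0 and 814 CPM (log2 change 0.92 ± 0.23 SE, adjusted p = 0.0343). Its value in E15.5 replicate 1 was nearer to the E13.5 libraries than to the other E15.5 libraries.

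The largest changes of the list were those of Sparc, Crybb1 and Ltc4s. Sparc, a matricellular protein, was at 565, 599.9 and 671 CPM at E13.5 and at 1720.1, 2591 and 2961 CPM at E15.5 (log2 change 1.96 ± 0.21 SE, adjusted p = 0.0062). Crybb1, a beta-crystallin that microglia express in development, was at 232, 311 and 309 CPM and then at 807, 1371 and 1214 CPM (log2 change 1.96 ± 0.24 SE, adjusted p = 0.00674). Ltc4s, which makes leukotriene C4, was at 182, 184 and 198 CPM and then at 512, 676 and 688 CPM (log2 change 1.71 ± 0.16 SE, adjusted p = 0.00519). For all 3 the lowest E15.5 library was replicate 1, and it was still above each E13.5 library by a wide margin. Stages that do not overlap were asked for by the rule that named these 3 genes. Selplg, the selectin ligand PSGL-1, rose from 123, 144 and 125 CPM to 288, 327 and 332 CPM (log2 change 1.25 ± 0.15 SE, adjusted p = 0.00674).

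The genes of the gate differed from one another. C1qa, C1qb and C1qc encode the chains of complement C1q. C1qa stood at 3065, 3112 and 2996 CPM at E13.5 and at 4459, 5613 and 6194 CPM at E15.5 (log2 change 0.80 ± 0.15 SE, adjusted p = 0.0145). C1qb and C1qc rose by 0.67 and 0.74 on the log2 scale, with adjusted p = 0.015 and 0.0124. Csf1r, the receptor on which microglial survival depends, was at 1301, 1364 and 1080.1 CPM and at 1390.1, 2199 and 2227 CPM, a change that did not pass (log2 change 0.61 ± 0.20 SE, adjusted p = 0.0697) but was 0.80 with adjusted p = 0.00173 without E15.5 replicate 1. Cx3cr1, the fractalkine receptor used for the sort, was at 2307, 1750.3 and 1945 CPM and at 1506, 2608 and 2668 CPM, and the stages overlapped (log2 change 0.15 ± 0.22 SE, adjusted p = 0.655). Without that library its change was 0.38 with adjusted p = 0.044. The gate asked for only 3 UMIs over Csf1r, C1qa, C1qb and Cx3cr1, while the median gated cell held between 66 and 211 of them.

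Sall1, a transcription factor that microglia need to keep their identity, was at 126, 127 and 134 CPM at E13.5 and at 108, 172 and 223 CPM at E15.5. The lowest value belonged to E15.5 replicate 1, and no change was called over 6 libraries (log2 change 0.35 ± 0.24 SE, adjusted p = 0.331). Without that library the change was 0.59 with adjusted p = 0.00845. The median change of 24 tested transcription factors of microglia was 0.12, or 0.23 without E15.5 replicate 1, where 8 were called higher and 2 lower. Spi1, Irf8 and Runx1, which specify the lineage, had changes of 0.22, 0.08 and 0.08 and were not called.

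**Figure D2:**
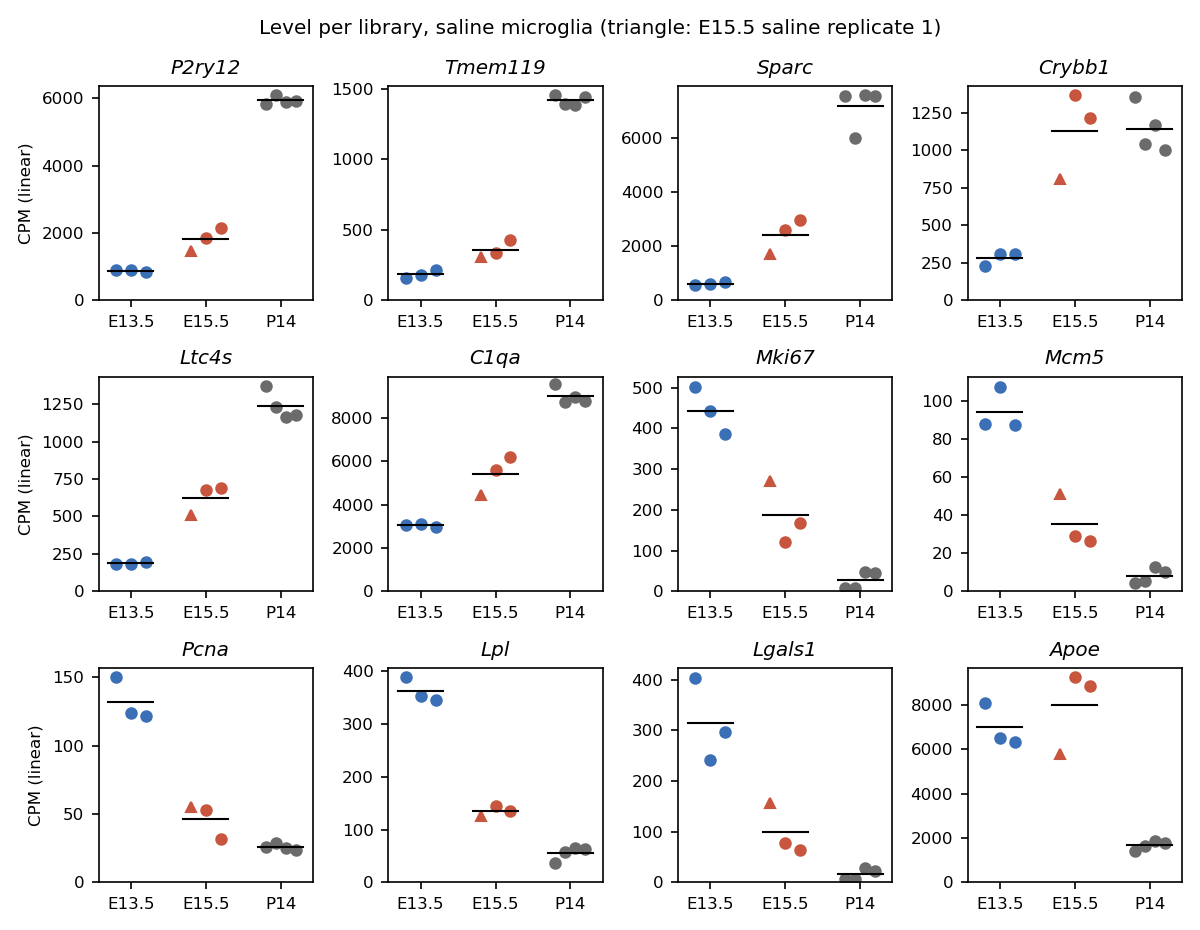
CPM on a linear axis of 12 genes in each saline library at E13.5, E15.5 and P14, with the mean of each stage as a bar and E15.5 replicate 1 as a triangle. P2ry12, Tmem119, Sparc, Ltc4s and C1qa step up at each stage, Mki67, Mcm5, Pcna, Lpl and Lgals1 step down, Crybb1 overlaps between E15.5 and P14, and Apoe overlaps between E13.5 and E15.5.

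The P14 saline libraries, 4 in number, give the levels of some of these homeostatic genes at a later stage. P2ry12 stood there at 5828, 6099, 5888 and 5920.5 CPM, above each embryonic library. Tmem119 stood at 1454, 1393, 1386 and 1444 CPM and Siglech at 1457, 1532, 1407 and 1466 CPM. Both were thus well above their E15.5 levels. Crybb1 stood at 1355, 1041, 1166 and 999 CPM, a range that overlaps that of the E15.5 libraries. These are levels side by side with no test, and the 2 P14 libraries of replicate 3 are a female and a male one.

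Among genes of complement and of the lysosome calls were made only in the higher direction. Of 14 complement genes tested, 6 were called higher, and their sum went from 10942, 11282 and 10599 CPM to 16132, 19357 and 19236 CPM. C1qa and C1qb, which the gate used, supplied most of that sum and 2 of the calls. Over the other 12 genes 4 were called higher, C1qc and Itgam among them, the median was 0.31, and the sum went from 3862, 3851 and 3641 CPM to 5692, 6783 and 6041 CPM. Itgam, the Cd11b chain of complement receptor 3 and the antigen used for the sort, was at 177, 155 and 159 CPM at E13.5 and at 223, 381 and 372 CPM at E15.5 (log2 change 0.97 ± 0.21 SE, adjusted p = 0.0228). Of 28 lysosomal genes, 14 were called higher and none lower, with a median of 0.55, and their sum went from 22851, 24726 and 24632 CPM to 32315, 39185 and 34723 CPM. The E15.5 libraries again lay above the E13.5 libraries in each of these sums.

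The lysosomal genes that were called included proteases, glycosidases and membrane proteins. Ctss, the cathepsin S protease, stood at 2214, 1876 and 1817 CPM and then at 2899, 3912 and 3407 CPM (log2 change 0.77 ± 0.15 SE, adjusted p = 0.0169). Lamp1, a glycoprotein of the lysosomal membrane, stood at 771, 871 and 838 CPM and then at 1334, 1565 and 1423 CPM (log2 change 0.77 ± 0.14 SE, adjusted p = 0.0142). Man2b1, a mannosidase, and Npc2, which carries cholesterol out of the lysosome, rose by 0.82 and 0.80 on the log2 scale with adjusted p = 0.0248 and 0.0149. From E15.5 to P14, with no test, mean levels went both ways. Those of Npc2 and Lamp1 were 1037 and 1441 CPM at E15.5 and 695 and 1110 CPM at P14. Those of Man2b1 and Ctss were 513 and 3406 CPM at E15.5 and 980 and 6029 CPM at P14. Ctsc, another cathepsin, had a change of -0.62 and was not called, while without E15.5 replicate 1 it was called lower at -0.82 with adjusted p = 0.0034. Cst3, cystatin C, an inhibitor of cysteine cathepsins, was among the most abundant transcripts and rose from 4271, 4009.5 and 4028 CPM to 7407, 9923 and 11003 CPM (log2 change 1.18 ± 0.16 SE, adjusted p = 0.00747).

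Receptors for nucleotides and for antibody were called in part. Of 12 purinergic receptors and ectonucleotidases tested, 5 were called higher and none lower (7 and 1 without E15.5 replicate 1), and 4 had a negative change. Besides P2ry12 these were Entpd1 (CD39, which degrades extracellular ATP), Adora3, P2rx7 and P2ry6, with log2 changes of 1.00, 0.94, 0.64 and 0.65. Of 12 genes of Fc-gamma receptors and their signalling adaptors, 5 were called higher and none lower, and 3 had a negative change. Fcgr2b, the inhibitory Fc-gamma receptor, changed most in that list, from 16.7, 10.9 and 13.4 CPM at E13.5 to 36.1, 48.8 and 44.8 CPM at E15.5 (log2 change 1.64 ± 0.19 SE, adjusted p = 0.00674). Trem2, a lipid-sensing receptor, and its adaptor Tyrobp rose by 0.64 and 0.49, with adjusted p = 0.0343 and 0.0317.

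Of 34 pathogen and cytokine receptors 5 were too low at both stages to be tested. Of the 29 tested, 4 were called higher and 1 lower, or 12 and 1 without E15.5 replicate 1. Ifngr1, a chain of the interferon-gamma receptor, was at 292, 293 and 269 CPM and then at 467, 569.6 and 571 CPM (log2 change 0.89 ± 0.14 SE, adjusted p = 0.0112). Il17ra, the interleukin-17 receptor, was the 1 that fell, from 71.2, 64.6 and 63.8 CPM to 41.8, 42.01 and 42.1 CPM (log2 change -0.69 ± 0.12 SE, adjusted p = 0.0131). Its 3 E15.5 values lay within 1 CPM of each other. Of 22 toll-like receptors and adaptors, 3 were called higher, or 13 higher and 1 lower without E15.5 replicate 1. Unc93b1, which carries nucleic acid-sensing toll-like receptors to endosomes, rose from 423, 442 and 389 CPM to 800.3, 926 and 748 CPM (log2 change 0.96 ± 0.15 SE, adjusted p = 0.00984). Tlr3, the receptor for double-stranded RNA, stood at 16.3, 11.9 and 14.9 CPM and at 15.6, 25.9 and 29.1 CPM, with no call (log2 change 0.68 ± 0.24 SE, adjusted p = 0.0795). Tlr2 was not called either (log2 change 0.37 ± 0.22 SE, adjusted p = 0.266). Without E15.5 replicate 1 both were called, Tlr3 at 0.91 with adjusted p = 0.00116 and Tlr2 at 0.56 with adjusted p = 0.0216. These were the largest changes with 1 library left out, which ran from 0.52 to 0.91 for Tlr3 and from 0.15 to 0.56 for Tlr2. Of 14 genes of antigen presentation, 3 were called higher, namely H2-DMa, H2-DMb1 and Cd74, with changes of 0.66, 0.90 and 1.10, and 5 without E15.5 replicate 1. Without dividing cells the changes of H2-DMa and H2-DMb1 were 0.03 and 0.42, no longer called, and that of Fcgr4 turned to -0.07.

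Most genes of DNA replication fell. Of 44 S phase genes tested all had a negative change and 33 were called lower, with a median of -1.14, or -1.52 without E15.5 replicate 1, where 42 were called. Their sum was 3016, 3098 and 2714 CPM in the E13.5 libraries and 1862, 1191 and 1169.5 CPM in the E15.5 libraries. E15.5 replicate 1 lay between the stages, nearer to the other E15.5 libraries.

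Pcna, the sliding clamp of the replication fork, stood at 150.4, 124 and 121 CPM at E13.5 and at 55.49, 52.9 and 31.55 CPM at E15.5 (log2 change -1.52 ± 0.22 SE, adjusted p = 0.00924). Mcm5, a subunit of the replicative helicase, stood at 88.01, 108 and 87.8 CPM and then at 51.3, 28.98 and 26.8 CPM (log2 change -1.43 ± 0.25 SE, adjusted p = 0.014). Uhrf1, which guides DNA methylation onto new strands, stood at 68.8, 67.6 and 61.6 CPM and then at 26.4, 17.54 and 16.3 CPM (log2 change -1.74 ± 0.20 SE, adjusted p = 0.00674). In each of these genes the stages did not overlap, and E15.5 replicate 1 was the highest library of its stage. The rule that named Pcna and Uhrf1 asked for stages that do not overlap. Hells, a chromatin remodeller of dividing cells, fell from 113, 103 and 89.9 CPM to 38.1, 34.54 and 33.3 CPM (log2 change -1.55 ± 0.14 SE, adjusted p = 0.00442). Ccne2, the cyclin of S phase entry, fell from 52.8, 33.9 and 30.9 CPM to 15.6, 9.90 and 8.001 CPM (log2 change -1.82 ± 0.28 SE, adjusted p = 0.0102).

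Mitotic genes spread more widely among the E15.5 libraries. Of 52 G2 and mitosis genes tested, 51 had a negative change and 14 were called lower, with a median of -1.01. Their sum was 6859, 6884 and 6457 CPM at E13.5 and 5760.4, 2139.7 and 2357 CPM at E15.5. In this sum E15.5 replicate 1 was close to the E13.5 libraries, and replicates 2 and 3 were far below it. Without replicate 1, 50 of the 52 were called lower and the median was -1.67.

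Mki67, the Ki-67 antigen of cycling cells, stood at 502, 442 and 387 CPM at E13.5 and at 271, 121 and 168 CPM at E15.5 (log2 change -1.27 ± 0.27 SE, adjusted p = 0.0209). Top2a, the topoisomerase that untangles chromosomes, stood at 558, 430.1 and 341 CPM and then at 274, 129 and 144 CPM (log2 change -1.30 ± 0.30 SE, adjusted p = 0.0255). Cdk1, the kinase that starts mitosis, stood at 193, 233 and 209.6 CPM and at 177, 50.52 and 43.53 CPM, was not called over 6 libraries (log2 change -1.26 ± 0.48 SE, adjusted p = 0.106), and had a change of -2.20 with adjusted p = 4.82e-05 without E15.5 replicate 1. The histone gene Hist1h2ap had the largest fall of the genes named by rule, from 315, 748 and 739 CPM to 67.6, 117 and 17.7 CPM (log2 change -3.18 ± 0.65 SE, adjusted p = 0.019). Replication-dependent histone genes are near-identical copies, so counts may be split between them. Against these, 5 of 15 inhibitors of the cell cycle and related genes were called higher, among them Cdkn1b (p27), from 32.8, 30.2 and 33.53 CPM to 61.1, 43.54 and 50.1 CPM (log2 change 0.65 ± 0.15 SE, adjusted p = 0.0274), and Btg2, an antiproliferative factor, from 31.2, 25.3 and 27.4 CPM to 46.4, 57.2 and 52.6 CPM (log2 change 0.87 ± 0.14 SE, adjusted p = 0.0117). The retinoblastoma-like gene Rbl1 was called lower (log2 change -0.84 ± 0.13 SE, adjusted p = 0.0112), with a change of -0.19 without dividing cells. Without E15.5 replicate 1, 8 of the 15 were called higher and 3 lower.

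The promoters of these genes show letters that are known to bind cell cycle factors. RefSeq gives the bases from 250 before to 50 after each transcription start (GRCm38.p6), and 2 replication genes and 2 mitotic genes called lower are printed to show where such letters lie in the S phase and the mitosis lists. Capitals mark E2F letters (TTTCCCGC, TTTGGCGC or TTTCGCGC on either strand) in Mcm5 and Hells, and CHR letters (TTTGAA or TTCGAA on either strand) in Top2a and Mki67.
Mcm5, chr8:75109259-75109558, + strand: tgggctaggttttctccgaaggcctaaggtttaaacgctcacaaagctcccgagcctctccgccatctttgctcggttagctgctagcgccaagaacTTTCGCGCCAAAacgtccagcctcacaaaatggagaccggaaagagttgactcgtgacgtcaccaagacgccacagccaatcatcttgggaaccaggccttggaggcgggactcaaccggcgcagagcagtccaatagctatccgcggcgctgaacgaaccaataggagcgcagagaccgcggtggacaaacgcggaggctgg
Hells, chr19:38930740-38931039, + strand: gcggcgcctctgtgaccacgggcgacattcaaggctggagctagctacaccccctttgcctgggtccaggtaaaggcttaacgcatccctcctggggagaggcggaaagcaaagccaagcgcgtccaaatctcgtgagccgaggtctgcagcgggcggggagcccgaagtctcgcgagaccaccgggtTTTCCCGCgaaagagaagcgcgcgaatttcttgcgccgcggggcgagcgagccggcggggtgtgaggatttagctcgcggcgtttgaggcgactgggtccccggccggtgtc
Top2a, chr11:99024140-99024439, - strand: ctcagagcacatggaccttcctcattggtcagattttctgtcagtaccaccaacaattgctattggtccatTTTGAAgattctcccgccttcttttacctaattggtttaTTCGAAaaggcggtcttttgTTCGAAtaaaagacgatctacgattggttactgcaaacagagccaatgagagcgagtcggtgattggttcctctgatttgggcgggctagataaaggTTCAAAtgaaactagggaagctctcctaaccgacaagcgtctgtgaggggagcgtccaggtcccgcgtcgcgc
Mki67, chr7:135716330-135716629, - strand: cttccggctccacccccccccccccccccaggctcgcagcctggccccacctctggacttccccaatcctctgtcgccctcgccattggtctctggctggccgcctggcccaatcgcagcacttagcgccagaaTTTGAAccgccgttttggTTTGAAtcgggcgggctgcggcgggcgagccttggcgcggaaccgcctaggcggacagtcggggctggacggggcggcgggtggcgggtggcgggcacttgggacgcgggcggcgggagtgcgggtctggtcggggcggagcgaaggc

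In Mcm5 the capitals are overlapping matches on both strands. E2F letters were in 12 of 28 promoter windows of the called S phase genes (42.9%), and CHR letters in 13 of 16 windows of the called G2 and mitosis genes (81.2%). Over all 32851 windows of the table the shares were 1.84% for E2F and 19.2% for CHR, and over windows of all genes tested 3.39% and 14%. Windows of genes called lower held E2F letters in 9.38% and those of genes called higher in 1.66%. CHR letters were in 19.6% and 12.4% of these windows, the former near the share of all windows. CCAAT, the letters of the NF-Y site, was in 78.6% and 81.2% of the S phase and mitotic windows, against 37.4% of all windows. The PU.1 letters GAGGAAGT were in none of the 9 windows of the called homeostatic genes, and in 3.20% of all windows. The letters of the interferon-stimulated response element (ISRE) were in 3 of 6 windows of the called interferon-stimulated genes, and in 3.44% of all windows. The windows matched 25 of 33, 13 of 14, 9 of 14 and 5 of 5 called genes of these lists, some genes have several windows, and a match is a description of letters and not a binding site.

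Genes that supply growing cells were called lower as well. Of 20 genes of nucleotide and one-carbon synthesis all had a negative change and 11 were called lower, or 19 without E15.5 replicate 1, with a median of -0.90. Cad, which starts pyrimidine synthesis, stood at 21.3, 25.3 and 20.1 CPM at E13.5 and at 8.76, 8.54 and 8.70 CPM at E15.5 (log2 change -1.39 ± 0.14 SE, adjusted p = 0.00561). Its E15.5 values were nearly equal, replicate 1 included.

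Of 24 genes of MYC-type growth and ribosome synthesis, 16 were called lower and none higher, with a median of -0.81. Ncl, nucleolin, stood at 1198, 1138 and 889 CPM and then at 492, 549 and 581 CPM (log2 change -1.01 ± 0.15 SE, adjusted p = 0.00924), and without dividing cells its change was -0.64. Nop56, a core protein of small nucleolar particles, stood at 169, 171 and 168 CPM and then at 77.55, 85.6 and 81.46 CPM (log2 change -1.08 ± 0.13 SE, adjusted p = 0.00674). Odc1, the first enzyme of polyamine synthesis, fell from 63.3, 68.52 and 63.1 CPM to 31.9, 23.7 and 21.9 CPM (log2 change -1.36 ± 0.17 SE, adjusted p = 0.00683). For Ncl and Nop56, E15.5 replicate 1 had the lowest of the E15.5 values, unlike for the mitotic genes. Myc itself was at 48.8, 52.2 and 47.2 CPM and at 33.6, 29.3 and 14.4 CPM and was not called (log2 change -0.96 ± 0.28 SE, adjusted p = 0.0515), while without E15.5 replicate 1 its change was -1.20 with adjusted p = 0.00684.

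Of 41 nuclear genes of oxidative phosphorylation, 39 had a negative change and 10 were called lower, with a median of -0.47. Leaving out E15.5 replicate 1 gave 36 called lower and a median of -0.73. Atp5k, a subunit of ATP synthase, changed most, from 438, 359 and 453 CPM to 242, 213 and 129 CPM (log2 change -1.12 ± 0.24 SE, adjusted p = 0.0209). Mitochondrially encoded transcripts summed to 44686, 39757 and 31089 CPM at E13.5 and to 22776, 32385 and 28586 CPM at E15.5, with overlap between the stages, and 4 of 13 were called lower. Heat shock genes, which respond to tissue handling as well as to growth, summed to 7379, 8325 and 7659 CPM and to 6215, 5799 and 6334 CPM, and 4 of 13 were called lower, or 7 without E15.5 replicate 1. Among these 4, Hspd1 and Hspe1 are mitochondrial chaperones that also stand in the growth list. Immediate early genes, which handling also induces, summed to 452, 481 and 599 CPM at E13.5 and to 720.0, 732 and 632 CPM at E15.5. Their sum was thus higher in each E15.5 library, while single genes differed, 13 with a positive and 5 with a negative change. Of the 18 tested, 3 were called higher, Jun, Btg2 and Nfkbia, and none lower. Without E15.5 replicate 1 the counts were 4 higher and 1 lower. The part of RNA quality and handling in these results was not tested.

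**Figure D3:**
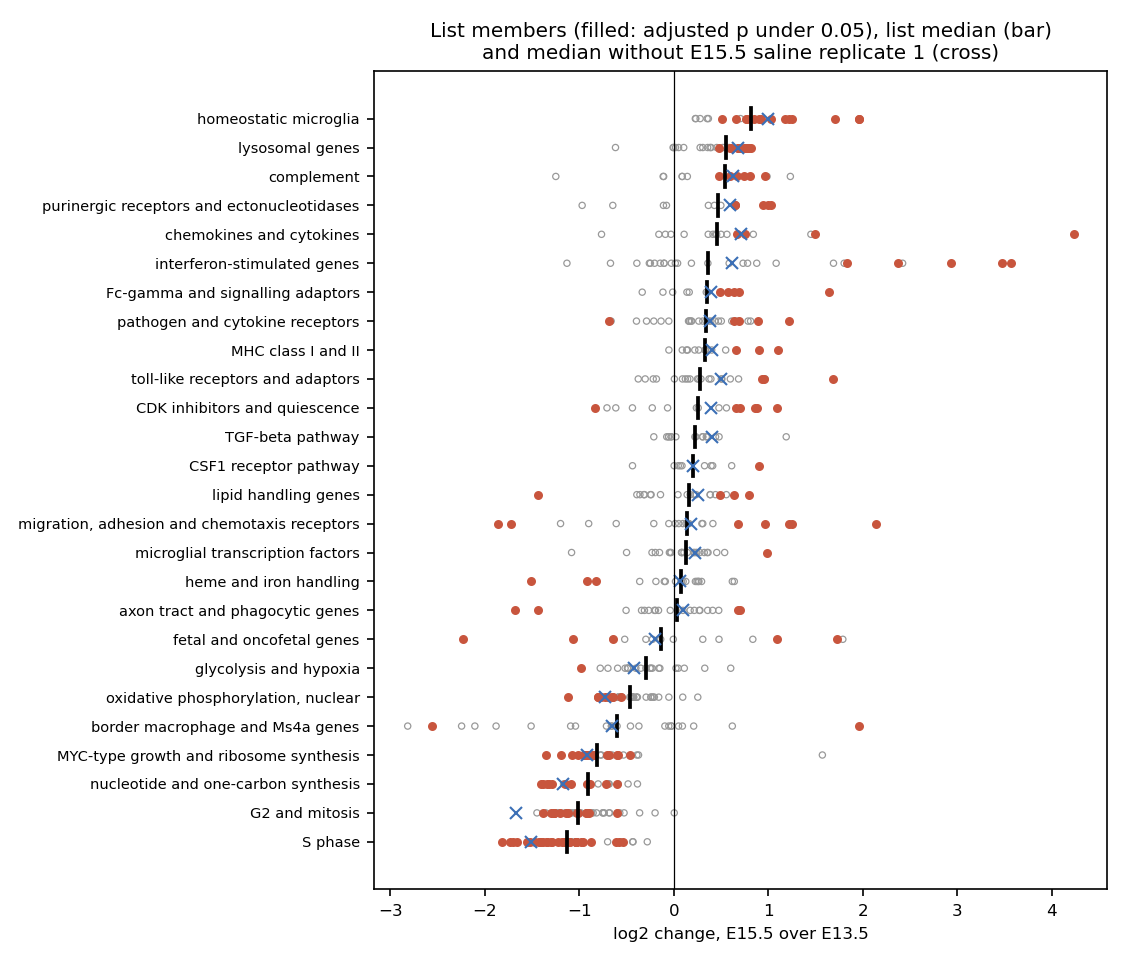
Log2 change from E13.5 to E15.5 of each tested member of 26 gene lists, filled where the adjusted p was below 0.05, with the list median as a bar and the median without E15.5 replicate 1 as a cross. The medians of the S phase, mitosis, nucleotide and growth lists lie to the left of 0. Those of the homeostatic, lysosomal and complement lists lie to the right. The complement list includes C1qa and C1qb, which the gate used, and its median is 0.54 with them and 0.31 without. Leaving out replicate 1 moves the mitosis median from -1.01 to -1.67.

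The lists overlap in part, and each can be read against the 8.19% of genes called higher and the 8.45% called lower. Counts without E15.5 replicate 1 are to be read against 18.9% and 20.2%, and several of them, such as 6 higher and 5 lower of 20, are near that background. In an alternative, barcodes with 2 or more UMIs over 10 mitotic genes, called dividing cells here, were left out before summing. The median of the homeostatic list was then 0.68, that of the lysosomal list 0.50, that of the S phase list -1.11, that of the G2 and mitosis list -1.04 and that of the growth list -0.59. Since the cells kept were chosen to hold few mitotic UMIs, the mitosis value is a description only. P2ry12, Sparc and Crybb1 had changes of 0.95, 1.72 and 2.35, and Pcna and Mcm5 of -1.17 and -1.49. Of the called genes 2069 could be tested among these cells, and 2008 kept their direction. The cells left out were chosen by UMIs of genes that fell, and at E13.5 they were 928 of 1150, 1460 of 1779 and 2674 of 3211 cells. At E15.5 they were 3745 of 5559, 630 of 2935 and 902 of 4477 cells. The cut was made without thinning, so the depth of a cell also decided whether it was kept. These values thus compare unlike parts of the 2 stages. The counts of calls dropped to 258 higher and 253 lower. Among genes named here the call was lost without dividing cells for Btg2, C1qb, Cbr2, Ccl6, Cd36, Cd68, Cd74, Cdkn1c, Ctss, Fcgr4, H19, H2-DMa, H2-DMb1, Hist1h2ap, Hspd1, Hspe1, Ifit2, Ifit3, Ifit3b, Irf7, Itgam, Lin28b, Man2b1, Meg3, Mki67, P2rx7, P2ry6, Rbl1, Rsad2, Top2a, Trem2, Tuba1a and Tyrobp. Without border macrophage-type cells it was lost for Ackr3, Btg2, Cbr2, Ccl6, Cd36, Cdkn1b, Cdkn1c, Ctsl, Cxcl10, Fcgr4, Fcrls, Gpr34, H19, H2-DMa, Hspe1, Itgam, Jun, Lin28b, Meg3, P2ry6, Siglech, Tfrc, Trem2, Tuba1a and Tyrobp.

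Cells were also counted by class in each library. Each cell was thinned to 5000 UMIs, shallower cells were set aside (33.8% of cells at E13.5 and 18.4% at E15.5), and a cell was counted where it held 2 or more UMIs over the genes of a class. Before thinning the cells kept held a median of 22377 UMIs at E13.5 and 11693 at E15.5. Dividing cells made up 67.8%, 71.8% and 71.5% of the E13.5 libraries and 53.7%, 13.4% and 14.8% of the E15.5 libraries. The 95% exact intervals, which cover counting error only, ran from 64.5% to 70.9% in E13.5 replicate 1 and from 52.2% to 55.2% in E15.5 replicate 1. The stages did not overlap, and E15.5 replicate 1 lay nearer to E13.5 than to its own stage. The means were 70.4% ± 2.27 (SD, n = 3) and 27.3% ± 22.9 (SD, n = 3), with p = 0.1 in a two-sided exact permutation test, the smallest p that 3 against 3 can give, and 0.2 after adjustment over 6 classes. Without E15.5 replicate 1 the E15.5 mean was 14.1%. Among 108 neuronal barcodes of both stages that failed the gate and reached this depth, 24.1% counted as dividing. In E15.5 replicates 2 and 3 these were 7 of 33 and 7 of 40. The 13.4% and 14.8% were not above the share counted in such barcodes. Whether these barcodes include dividing cells was not tested, so they give no floor for this class. The unthinned shares were 80.7%, 82.1% and 83.3% at E13.5 and 67.4%, 21.5% and 20.1% at E15.5.

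**Figure D4:**
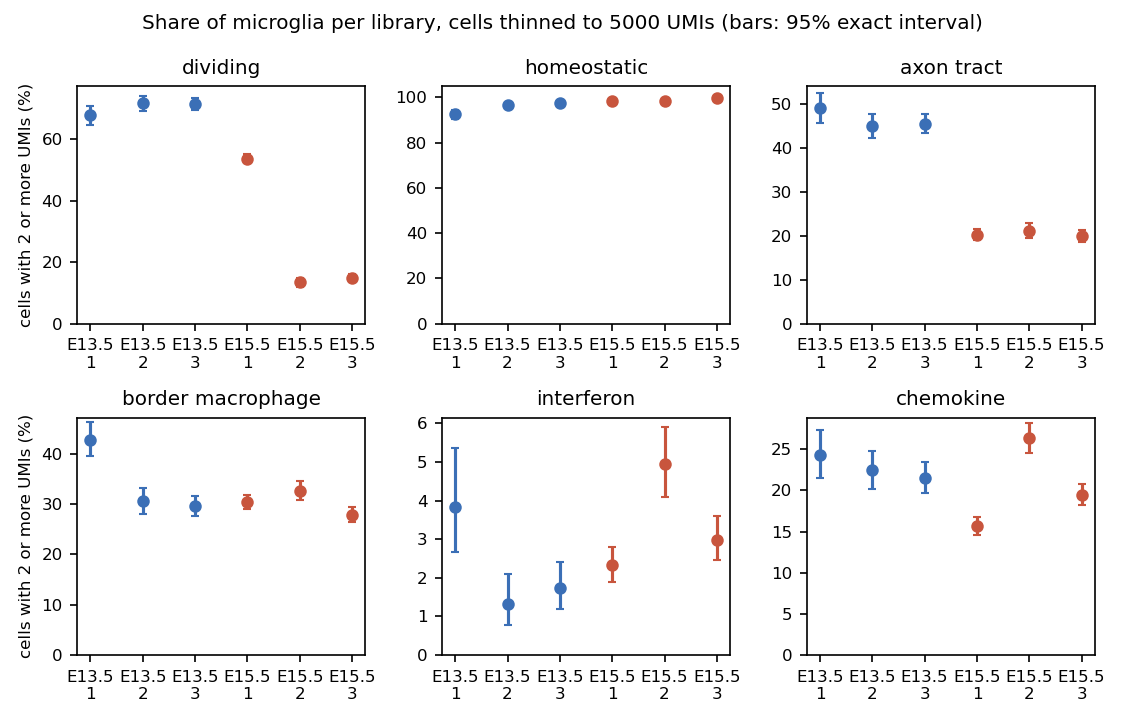
Percent of microglia with 2 or more UMIs over the genes of each of 6 classes after thinning to 5000 UMIs, for E13.5 (blue) and E15.5 (red) replicates 1 to 3, with exact 95% intervals. Cells counted by the dividing and the axon tract score are fewer in each E15.5 library than in each E13.5 library. E15.5 replicate 1 stands at 53.7% dividing but at 20.2% axon tract, and the other shares lie close together or overlap. Of the genes of the axon tract score only Lpl was called, and Spp1 was not.

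Cells with P2ry12, Tmem119, Siglech, Gpr34 or Sall1 UMIs were nearly all cells at both stages, 92.5%, 96.7% and 97.3% at E13.5 and 98.2%, 98.3% and 99.7% at E15.5. The difference was 3.20 percentage points (p = 0.1, exact permutation test, adjusted 0.2), against 2.78% of neuronal barcodes. A share so near to all cells cannot show a change in level. Cells with UMIs of the axon tract score, over Lpl, Spp1, Igf1, Gpnmb, Itgax and Lgals3, made up 49.0%, 44.9% and 45.6% at E13.5 and 20.2%, 21.2% and 19.9% at E15.5 (p = 0.1, exact permutation test, adjusted 0.2), against 2.78% of neuronal barcodes. E15.5 replicate 1 did not stand apart here.

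Of that score only Lpl was called. Lpl encodes lipoprotein lipase, which frees fatty acids from lipoproteins. It stood at 388, 352 and 345 CPM at E13.5 and at 126, 145 and 136 CPM at E15.5, with little spread at either stage (log2 change -1.44 ± 0.13 SE, adjusted p = 0.00442). Spp1, osteopontin, a marker gene of axon tract microglia, stood at 56.4, 51.3 and 153 CPM and at 48.1, 166 and 45.8 CPM, each stage having 1 library well above the others (log2 change -0.04 ± 0.59 SE, adjusted p = 0.969). In the wider list of 20 axon tract and phagocytic genes, Lpl and Lgals1 were called lower and Ctsl and Cd68, a cathepsin and a lysosomal membrane protein, higher. Of the 20, 6 were called higher and 5 lower without E15.5 replicate 1. Lgals1, galectin-1, stood at 403, 241 and 297 CPM and then at 156, 78.2 and 63.6 CPM (log2 change -1.68 ± 0.34 SE, adjusted p = 0.018). Apoe, the lipid carrier, was among the most abundant transcripts at 8086, 6531 and 6347 CPM and 5801, 9276 and 8878 CPM, with no call (log2 change 0.17 ± 0.19 SE, adjusted p = 0.551), and its change was 0.36 with adjusted p = 0.0413 without E15.5 replicate 1.

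Markers of border-associated macrophages, the macrophages of the meninges and vessels, varied more between libraries than between stages. Of 23 tested, Cbr2 was called higher and Cd36 lower, with a median of -0.60, and without E15.5 replicate 1 the counts were 1 and 2. Mrc1, the mannose receptor, stood at 377, 159.8 and 126 CPM and at 152, 202 and 159.8 CPM (log2 change -0.37 ± 0.36 SE, adjusted p = 0.493). Pf4, a chemokine of platelets and these macrophages, stood at 448, 34.6 and 15.7 CPM and at 68.3, 55.6 and 8.32 CPM (log2 change -1.88 ± 1.17 SE, adjusted p = 0.285). Lyve1, which marks vessel-associated macrophages, stood at 153, 4.87 and 1.11 CPM and at 11.98, 8.48 and 1.21 CPM (log2 change -2.82, adjusted p = 0.22). Its values and those of Pf4 in E13.5 replicate 1 stood far above the other libraries. Without that library the changes of Mrc1, Ms4a7 and Pf4 turned positive, at 0.23, 0.38 and 0.80, and remained uncalled. Cells with 2 or more UMIs over 8 such markers made up 42.8%, 30.5% and 29.6% at E13.5 and 30.4%, 32.7% and 27.9% at E15.5 (p = 0.6, exact permutation test, adjusted 0.6), against 0 of 108 neuronal barcodes, which allows a share of up to 2.78%. When cells with 2 or more such UMIs before thinning were left out, 344 genes were called higher and 329 lower. That cut was larger than the thinned shares. It took out 706 of 1150, 929 of 1779 and 1416 of 3211 cells at E13.5. At E15.5 it took out 2524 of 5559, 1355 of 2935 and 1720 of 4477.

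A minority of the interferon-stimulated genes was called. Of 27 tested, 5 were called higher (Irf7, Ifit2, Ifit3, Ifit3b and Rsad2) and none lower, 10 had a negative change, and the median was 0.36. Without E15.5 replicate 1, 12 were called higher and 1 lower. Between the same stages after MIA, none of the 27 was called higher and 3 were called lower, with a median of -0.23. Over all genes of both comparisons 10.8% were called higher and 10.1% lower after MIA, so 3 of 27 is near that share. Ifit3, an antiviral protein induced by interferon, stood at 4.36, 1.74 and 5.90 CPM at E13.5 and at 7.79, 52.1 and 34.3 CPM at E15.5 (log2 change 2.93 ± 0.68 SE, adjusted p = 0.0261), and without dividing cells its change was 1.54 with adjusted p = 0.144. Cxcl10, an interferon-induced chemokine, had the largest rise of the genes named by rule, from 2.65, 1.86 and 3.52 CPM to 7.30, 117 and 30.2 CPM (log2 change 4.23 ± 0.91 SE, adjusted p = 0.0216). Without E15.5 replicate 2 the change of Cxcl10 was 2.75 with adjusted p = 0.055, which did not pass. The call was also lost without any 1 of the E13.5 libraries and without border macrophage-type cells. After saline, E15.5 replicate 2 was the highest library for both Ifit3 and Cxcl10, and replicate 1 was only somewhat above E13.5. After MIA, Cxcl10 rose by 2.82 and was called (edgeR, adjusted p = 0.0392). Ifit3 rose there by 1.92 and was not called (edgeR, adjusted p = 0.0712). The sum over the list, 1215, 701 and 655 CPM at E13.5 and 728, 1170.4 and 746 CPM at E15.5, overlapped, with E13.5 replicate 1 the highest of all. Cells with 2 or more UMIs of the interferon score made up 3.84%, 1.32% and 1.73% at E13.5 and 2.32%, 4.94% and 2.99% at E15.5 (p = 0.4, exact permutation test, adjusted 0.6). The sign of that difference turned without thinning.

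Chemokines and cytokines gave 4 genes called higher of 17 tested and none lower, or 9 higher without E15.5 replicate 1. Ccl6 and Il16 rose by 0.75 and 0.67 with adjusted p = 0.0289 and 0.0175, and Il6 was called at levels below 1 CPM, a call lost without E15.5 replicate 1. Ccl4, an inflammatory chemokine, stood at 39.53, 42.2 and 30.7 CPM and at 28.2, 187 and 95.53 CPM, and replicate 1 lay below all E13.5 libraries (log2 change 1.45 ± 0.55 SE, adjusted p = 0.102). Ccl3 overlapped as well (log2 change 0.50 ± 0.49 SE, adjusted p = 0.503). Without replicate 1 the changes were 1.90 with adjusted p = 0.000669 for Ccl4 and 0.92 with adjusted p = 0.0142 for Ccl3. Ccl5, a chemokine outside this list that was named after its values were seen, stood at 0.0948, 0.0290 and 0.0604 CPM at E13.5 and at 0.597, 39.55 and 2.37 CPM at E15.5. Replicate 2 carried nearly all of that level, and since the gene could pass the filter on low counts only through the E15.5 libraries no fitted change is given for it. Cells with 2 or more UMIs of the chemokine score made up 24.3%, 22.5% and 21.5% at E13.5 and 15.6%, 26.4% and 19.5% at E15.5 (p = 0.5, exact permutation test, adjusted 0.6).

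Other genes with large changes had varied roles. Lag3, an inhibitory receptor of the immunoglobulin family, stood at 16.9, 14.9 and 16.1 CPM at E13.5 and at 30.8, 84.8 and 45.9 CPM at E15.5 (log2 change 1.73 ± 0.34 SE, adjusted p = 0.0166). Ecscr, first known as an endothelial surface protein, stood at 25.6, 23.1 and 27.4 CPM and then at 75.9, 110.1 and 138 CPM (log2 change 2.06 ± 0.22 SE, adjusted p = 0.00561), while of 7 endothelial markers tested none was called, or 2 higher and 1 lower without E15.5 replicate 1. Fscn1, the actin-bundling protein fascin, stood at 25.9, 25.6 and 21.48 CPM and then at 57.6, 74.8 and 61.9 CPM (log2 change 1.39 ± 0.16 SE, adjusted p = 0.00674). These 3 did not overlap between the stages, which the rule that named them asked for. Tuba1a, an alpha-tubulin that neurons express strongly, rose from 87.3, 97.01 and 103 CPM to 423, 300.2 and 168 CPM (log2 change 1.61 ± 0.31 SE, adjusted p = 0.0162), highest in the library with the most neuronal UMIs. Without cells that held 3 or more neuronal UMIs its change was 1.40. It was not called without dividing cells, at 1.16 with adjusted p = 0.104, or without border macrophage-type cells, at 1.28 with adjusted p = 0.0558. Without the cells with neuronal UMIs the median of the neuronal markers was 1.79, beside 1.66 over all gated cells. That median was 0.55 without dividing cells, where 12 of the markers could be tested, and 0.95 without border macrophage-type cells.

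Genes of adhesion and of fetal growth included calls in both directions, and the lower calls in adhesion were about as common as over all genes. Of 22 migration, adhesion and chemotaxis receptors 5 were called higher and 2 lower, with a median of 0.14, against 8.19% and 8.45% of all genes. Without E15.5 replicate 1 the counts were 9 and 3, against 18.9% and 20.2%. Both counts of genes called lower were near or under these shares. Besides Itgam and Selplg, Ackr3, a scavenger receptor of chemokines, and Itgb5, an integrin chain, rose by 2.13 and 0.67 with adjusted p = 0.018 and 0.0263. Itgal, the LFA-1 integrin chain, stood at 47.7, 41.2 and 34.46 CPM and then at 16.6, 11.2 and 9.89 CPM (log2 change -1.73 ± 0.22 SE, adjusted p = 0.00674). Cd44, the hyaluronan receptor, stood at 20.6, 13.7 and 11.6 CPM and then at 4.70, 4.72 and 3.29 CPM (log2 change -1.86 ± 0.24 SE, adjusted p = 0.00702). Gpr65, an acid-sensing receptor, stood at 71.9, 42.4 and 45.9 CPM and then at 19.47, 25.8 and 9.67 CPM (log2 change -1.55 ± 0.35 SE, adjusted p = 0.0239). All E15.5 libraries lay below all E13.5 libraries for these 3 genes, which for Gpr65 the rule that named it asked for. Of 15 fetal and oncofetal genes 2 were called higher, Cdkn1c and Meg3, at 1.09 and 1.72, and 3 lower, H19 (at -1.07), Igf2bp1 and Lin28b. Igf2bp1, an RNA-binding protein of fetal cells, fell from 25.6, 17.7 and 13.8 CPM to 6.08, 2.95 and 3.12 CPM (log2 change -2.23 ± 0.32 SE, adjusted p = 0.00909), and Lin28b, which blocks maturation of the microRNA let-7, from 13.4, 11.3 and 11.9 CPM to 8.05, 6.22 and 9.48 CPM (log2 change -0.65 ± 0.17 SE, adjusted p = 0.0388). Igf2bp3, its relative, had a change of -0.14 and was not called. Tfrc, the transferrin receptor, fell from 21.6, 14.1 and 10.3 CPM to 3.57, 5.88 and 6.82 CPM (log2 change -1.51 ± 0.31 SE, adjusted p = 0.0184), while Hmox1, heme oxygenase, was not called (log2 change 0.29 ± 0.16 SE, adjusted p = 0.237).

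The stages were also compared after MIA, in 6 libraries other than the saline ones. The edgeR fit held all 12 libraries, so the saline libraries helped to set the spread behind the calls after MIA. Some gated barcodes of the MIA libraries also occurred in saline libraries, as given below. Of the 1096 genes called higher after saline 1095 had a positive change after MIA and 831 were called there. Of the 1131 called lower, 1129 had a negative change and 880 were called. Over the 13382 genes of both comparisons 10.8% were called higher and 10.1% lower after MIA, and 53.98% had a positive change. P2ry12, Sparc and Crybb1 changed by 1.12, 2.26 and 2.43 after MIA, and Mki67, Mcm5 and Lpl by -1.71, -1.78 and -1.41, beside 1.03, 1.96 and 1.96, and -1.27, -1.43 and -1.44, after saline. Of the 26 list medians 23 had the same sign after saline and after MIA, and the other 3 were those of the interferon-stimulated genes (0.36 and -0.23), the fetal genes (-0.14 and 0.37) and the genes of heme and iron handling (0.08 and -0.008). The difference between the stage effects of saline and MIA was tested over 12 libraries. It was called for 0 of 14081 genes (0%) by edgeR, with 48 (0.34%) at an unadjusted p below 0.05. DESeq2 called 0, with 36 (0.26%). Both are far fewer than evenly spread p-values would give, and the cause was not tested. Same-numbered saline and MIA libraries were not paired within their stage in these fits, and whether they pair was not tested. The shared directions are therefore not counted as an independent repeat of the stage change. The test of the difference has little power. In unpaired simulated counts of these libraries it found 3.5% of 2-fold differences with edgeR and 23% with DESeq2. After MIA, E13.5 replicates 1 and 2 held only 272 and 359 gated barcodes, of which 40.4% and 69.6% also occurred in another library. MIA E13.5 replicate 1 shared 67 (24.6%) with saline E13.5 replicate 1 and 107 (39.3%) with P14 saline replicate 1. MIA E13.5 replicate 2 shared 152 (42.3%) with saline E15.5 replicate 3 and 220 (61.3%) with MIA E15.5 replicate 3. The stage change after MIA was not fitted without shared barcodes.

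**Figure D5:**
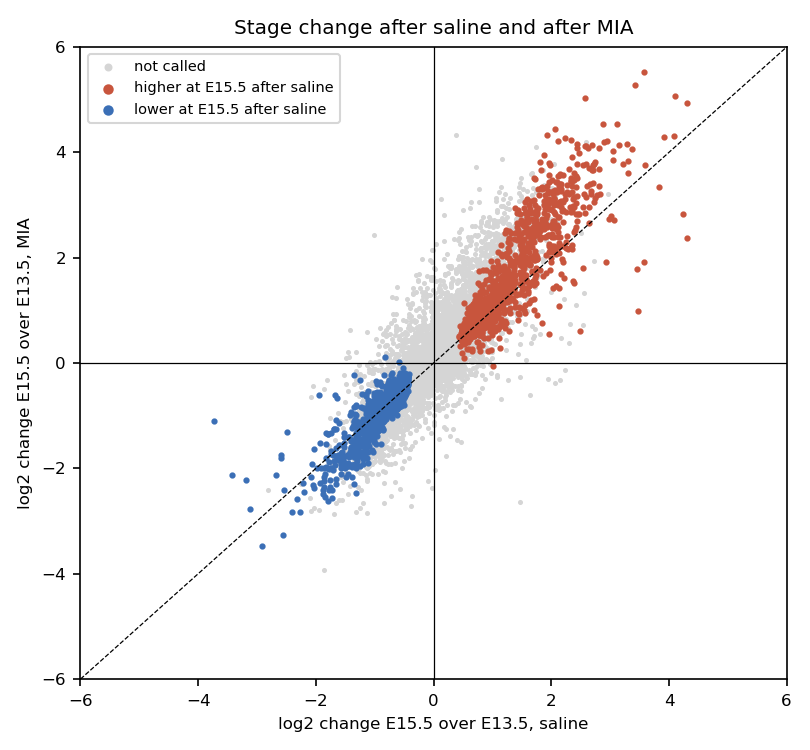
Log2 change from E13.5 to E15.5 after saline (x axis) against the same after MIA (y axis) for 13382 genes, with the dashed line where both are equal. Genes called higher (red) or lower (blue) after saline lie in the same quadrant after MIA but for 3 of 2227, and 1 gene, Ccl5, lies outside the axes.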

How the data were processed

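The authors aligned reads of 10x Chromium 3' v3.1 libraries to mm10 and deposited counts of UMIs per gene and barcode with no normalization. The file headers and the submitters' processing notes name Cell Ranger 3.1.0. The study's methods name another version for the sorted microglia.

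The filters, the gate and the sums were made here. Genes were filtered with filterByExpr by stage, scaled with TMM and tested with the edgeR 4.0.16 quasi-likelihood test in R 4.3.3, with Benjamini-Hochberg adjustment over all genes tested. The study summed counts per sample, sex of the cells and microglial substate and used DESeq2 with sex and sequencing batch as covariates. Here the sums were not split by sex, the labels give no batch, and no covariate was fitted. DESeq2 1.42.0 was an alternative. The interaction of stage and treatment was fitted over 12 libraries. For cell shares the exact permutation test was two-sided and ran over the libraries. Scrublet in scanpy 1.11.5 scored doublets for an alternative only. The alternatives also left out single libraries and groups of cells. Gene positions are from GENCODE (GRCm38) and promoters from RefSeq.

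On simulated counts of the 13384 genes of the 6 libraries, with 200 genes changed 2-fold, edgeR found 63 (31.5%) and called 4 unchanged genes, and DESeq2 found 126 (63%) and called 31. Depth is the UMIs of the gated cells, and the fewer cells of the E13.5 libraries limit their rare classes most.

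The comparison, the gene lists and the classes were chosen with earlier results of these data known. Named were the 12 largest changes in each direction among called genes with at least 50 CPM in the higher stage and stages that do not overlap, up to 4 called members of each of 26 lists with at least 20 CPM, and a set list of microglial genes. Members of a list, the genes in the paragraph on adhesion and fetal growth among them, that fall outside this rule were named after their values were seen. A few genes are not reported here.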

Additional observations from a re-analysis of the deposited data

Results flagged for a closer look

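Sparc at P14 was the 1 level given here in which a library lay far from the others of its group. P14 replicate 2 stood at 5993 CPM, and the other 3 P14 saline libraries stood between 7536 and 7566 CPM, so its gap to them passed Dixon's 95% limit for 4 samples. Chance alone does so in about 1 of 20 groups, and 22 genes were looked at. The groups of 3 embryonic libraries are too small for that rule.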

How the results depend on the processing

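The 1096 genes called higher and 1131 called lower moved by less than 1.5 times with DESeq2, RLE scaling, no filter on low counts, a gate of 10 UMIs or none, removal of doublets, of cells with neuronal UMIs or of shared barcodes (chosen after the data were seen), and thinning to the shallowest library. Leaving out 1 library gave between 71 and 2552 higher and between 46 and 2735 lower, fewest without E13.5 replicate 2 and most without E15.5 replicate 1. Without E15.5 replicate 3 they were 977 and 591. Without dividing cells they were 258 and 253, and without border macrophage-type cells 344 and 329. The same-numbered libraries of the stages do not pair (correlations of -0.08, -0.09 and 0.08), and a replicate block gave counts of 481 and 401. The count of genes whose stage change differed after MIA was 0 with DESeq2, RLE scaling, no filter on low counts, a replicate block and each of the 12 libraries left out in turn, and the alternatives that leave out or thin cells were not run for it. The cause of these moves was not tested.

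Over 122 named genes and all alternatives, 1753 results of 2192 stayed on the same side, 396 lost their call, 21 gained one and 22 turned, none of them called after turning. Without dividing cells the turned log2 changes were Fcgr4 -0.069, Apoe -0.12, Igf2bp3 0.072 and Hsp90ab1 0.20. Without border macrophage-type cells they were Hsp90ab1 0.018, Fabp7 -0.13 and Rgs5 -0.23. Rgs5 was at -0.63 with a gate of 10 UMIs and at -0.088 without cells with neuronal UMIs, where Spp1 was at 0.069. Over the libraries left out, the ranges were -0.64 to 0.23 for Mrc1, -1 to 0.38 for Ms4a7, -2.43 to 0.80 for Pf4, -0.94 to 0.68 for Spp1, -0.061 to 0.92 for Ccl3, -0.28 to 0.018 for mt-Co1, -0.57 to 0.94 for Tsix and -0.24 to 1.07 for Rgs5.

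The shares of dividing, homeostatic and axon tract cells kept their direction in every alternative, and with 1 library left out ran from -56.3 to -36.1, from 1.71 to 4.08 and from -26.9 to -24.8 percentage points. The border macrophage share ran from -6.39 to 0.23 and the chemokine share from -5.21 to 0.14, which was 0.35 at a minimum of 4 UMIs. The interferon share was -2.33 without thinning and -0.19 at a minimum of 1 UMI. With 3 libraries a stage no share can reach a p below 0.1.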
